A study of Mus musculus with 12 samples.

Results

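The 9 genes described here encode chemokine ligands that dendritic cells can make: Ccl17, Ccl22, Ccl5, Ccl3, Ccl4, Cxcl9, Cxcl10, Cxcl11 and Cxcl16. They were chosen by name, as 9 of the 53458 genes to which the deposited transcript rows were summed, and all 9 passed the filter on low counts. The libraries are bulk RNA-seq of type 1 conventional dendritic cells (cDC1, the dendritic cell type specialised in presenting antigen to CD8+ T cells) from the inguinal lymph node of mice. The 4 groups hold 3 libraries each: neither tumor nor CD40 agonist (NoTumor-NoCD40), agonist alone (NoTumor-CD40), tumor alone (Tumor-NoCD40) and tumor with agonist (Tumor-CD40). The series title names a subcutaneous KPC tumor, KPC being the usual name of a mouse model of pancreatic cancer. The agonist's name, dose and timing, the strain and age of the mice, the sort gates and whether each library is 1 animal are not given in the sources used here, so a p-value here reflects library-to-library spread alone, which may be technical.

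Chemokines are small secreted proteins that guide cells bearing the matching receptor. CCL17 and CCL22 both bind CCR4, found on regulatory and helper T cells, and are known products of mature dendritic cells; CCL3, CCL4 and CCL5 are inflammatory chemokines that attract T cells, NK cells and monocytes, and CCL3 and CCL5 bind CCR1. CXCL9, CXCL10 and CXCL11 are interferon-inducible ligands of CXCR3, a receptor of activated T cells and NK cells, and CXCL16 is a membrane-bound ligand of CXCR6 that proteases can shed. CD40 is a receptor of the TNF receptor family that activates NF-kB in dendritic cells and drives their maturation.

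In the mm10 annotation (GENCODE M21) 8 of the 9 genes lie in clusters. Ccl22 (chr8:94745590-94751699, plus strand) lies 58753 bases before Ccl17 (chr8:94810453-94812036, plus strand). Ccl5 (chr11:83525778-83530518, minus strand), Ccl3 (chr11:83647844-83649355, minus strand) and Ccl4 (chr11:83662584-83664683, plus strand) follow each other on chromosome 11, with 13228 bases between Ccl3 and Ccl4. Cxcl9 (chr5:92321347-92328079), Cxcl10 (chr5:92346638-92348889) and Cxcl11 (chr5:92359544-92365485) lie in a row on the minus strand, with 18558 and 10654 bases between them. Cxcl16 (chr11:70453983-70459984, minus strand) lies apart from the others, and Cxcl11 is annotated as a polymorphic pseudogene, since the reference strain carries a frameshift in it.

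RefSeq promoter sequences of build GRCm38.p6 matched 5 of the 9 genes (Ccl17, Ccl22, Ccl3, Cxcl9 and Cxcl10), and the 250 bases before each RefSeq start were searched on both strands for 5 motifs. The RefSeq start of Ccl22 lies inside the GENCODE transcript, so the end of its window (chr8:94745434-94745683) runs into that transcript. These were the GAS motif of STAT factors (TTC, any 3 bases, GAA), the interferon response core ISRE (GAAA, any 2 bases, GAAA), an NF-kB site, the AP-1 site TGANTCA with C or G as its middle base, and TATAAA. Of 32851 promoter windows of the same length, 7.02% hold GAS, 2.98% the ISRE core, 7.25% NF-kB, 4.46% AP-1 and 12.4% TATAAA. The 3 sequences below are shown because Ccl17 is the member whose count difference passed the test and Cxcl9 and Cxcl10 are neighbours whose levels varied together. Each gives the 220 bases before the RefSeq start, with motif matches in capitals.
Ccl17 (chr8:94810233-94810452, plus strand): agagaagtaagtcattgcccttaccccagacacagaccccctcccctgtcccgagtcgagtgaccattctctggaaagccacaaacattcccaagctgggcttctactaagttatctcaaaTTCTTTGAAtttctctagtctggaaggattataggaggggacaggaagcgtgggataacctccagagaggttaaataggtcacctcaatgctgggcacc
Cxcl9 (chr5:92328080-92328299, minus strand): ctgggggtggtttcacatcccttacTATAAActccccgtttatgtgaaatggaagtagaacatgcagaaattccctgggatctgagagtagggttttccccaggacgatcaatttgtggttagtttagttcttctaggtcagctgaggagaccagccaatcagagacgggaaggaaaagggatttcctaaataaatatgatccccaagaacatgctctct
Cxcl10 (chr5:92348890-92349109, minus strand): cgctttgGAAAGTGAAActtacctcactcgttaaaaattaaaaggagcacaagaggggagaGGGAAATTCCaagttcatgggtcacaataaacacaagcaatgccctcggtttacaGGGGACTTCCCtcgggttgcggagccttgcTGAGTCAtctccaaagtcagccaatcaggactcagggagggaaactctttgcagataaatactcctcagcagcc
The Ccl17 window holds 1 GAS match, at bases -99 to -91. In Cxcl10 the matches are an ISRE core at -213 to -204, NF-kB letters at -159 to -150 and, in a pair of overlapping matches, at -104 to -95 and -103 to -94, and AP-1 at -74 to -68. Cxcl9 has only TATAAA, at -195 to -190, and no match was found in the window of Ccl3 or in that of Ccl22, which is not all upstream of the annotated gene.

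Library totals were 22855143 to 27163393 counts. The cDC1 label was checked with 10 markers: the defining genes Xcr1 (49.5 to 780 CPM) and Clec9a (33.2 to 357 CPM) were present in all 12 libraries, CPM being counts scaled to library size with TMM factors. The summed cDC1 markers ranged from 1923 CPM in Tumor-NoCD40 library 3 and 2460 CPM in NoTumor-CD40 library 3 to 11122 CPM in Tumor-NoCD40 library 2. A list of 9 genes of mature or migratory dendritic cells, Ccl22 left out of it, ran largely the other way, with 15178, 21741 and 4728 CPM in those 3 libraries. Markers of type 2 conventional dendritic cells (cDC2) summed to 25.4 to 60.4 CPM in NoTumor-NoCD40 and 54.8 to 97.2 CPM in NoTumor-CD40. Of these, Esam passed the test upwards in that comparison (edgeR). Langerhans cell markers summed to 485 to 620 CPM and 166 to 455 CPM in the same 2 groups. T cell markers (8 of 8 detected) summed to 115 to 595 CPM and NK cell markers (8 of 8) to 73.6 to 142 CPM. Macrophage markers summed to 18.5 to 129 CPM, and of the 8 only Vsig4 was at 0 in every group. Monocyte markers summed to 92.6 to 478 CPM, and of these Ly6c2 passed the test upwards in both agonist comparisons (edgeR). Plasmacytoid dendritic cell markers summed to 157 to 230 CPM in NoTumor-NoCD40 and 283 to 540 CPM in NoTumor-CD40. They summed to 187 to 237 CPM in Tumor-NoCD40 and 486 to 623 CPM in Tumor-CD40. Of this list, Spib passed upwards with the agonist without tumor and Ly6d with tumor (edgeR). B cell markers (8 of 8) summed to 27.2 to 228 CPM in the other 3 groups and to 675 to 1884 CPM in Tumor-CD40. In bulk samples fewer cells of a type and less RNA per cell cannot be told apart.

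Per transcript length, Ccl5 was by far the most abundant member, with a mean of 6905 TPM (a transcript level corrected for length and library size) over the 12 libraries and a range of 2014 to 15735 TPM. It ranked between place 6 and place 87 of all genes and made up 76 to 92.6% of the summed TPM of the 9 genes. Ccl22 followed at 555 TPM (136 to 1346), Cxcl16 at 246 TPM (144 to 404), Cxcl9 at 150 TPM (32 to 243) and Ccl17 at 59.3 TPM (9.44 to 140). Low levels were found for Cxcl10 at 10.7 TPM, Ccl4 at 6.89 TPM, Ccl3 at 2.55 TPM and Cxcl11 at 0.4 TPM. Ccl5 exceeded Ccl22 in 12 of 12 libraries and Ccl22 exceeded Cxcl16 in 11. The neighbours Cxcl16 and Cxcl9 kept their order in 8, Cxcl9 and Ccl17 in 9, and Cxcl10 and Ccl4 in 9 of 12, so these pairs were not separated beyond their spread. Together the 9 genes took 0.262 to 1.7% of a library's TPM.

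**Figure D1:**
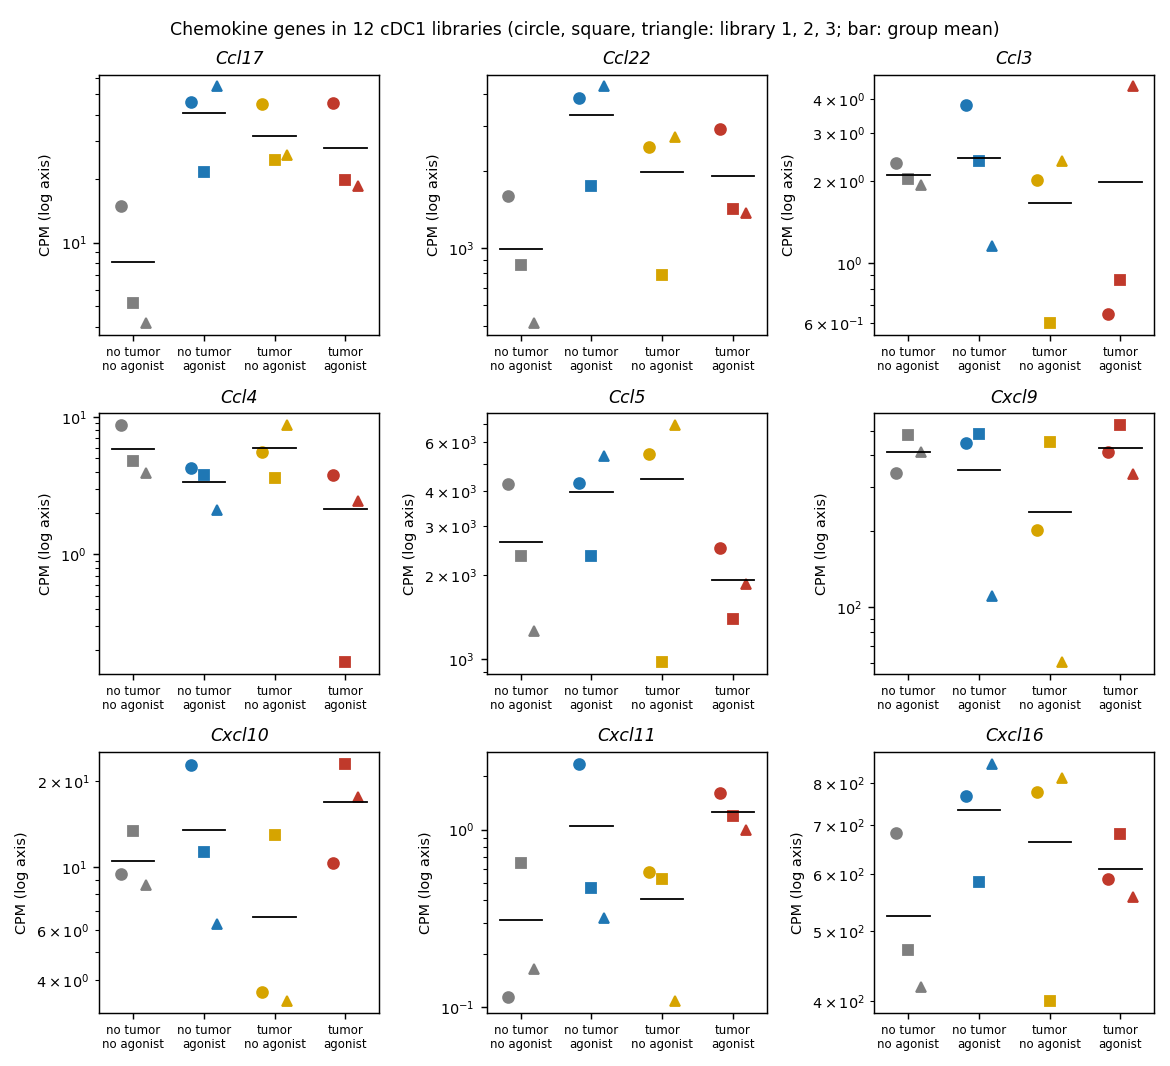
CPM of each gene (log axis) in the 12 libraries by group; circles, squares and triangles are libraries 1, 2 and 3 and bars are group means. The 3 NoTumor-NoCD40 libraries lie below every other library for Ccl17 (4.18 to 14.9 CPM against 18.4 to 54.5 CPM), while the groups of Ccl3 overlap throughout.

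Among the CCR4 ligands, Ccl17 rose with the CD40 agonist in mice without tumor. It stood at 14.9, 5.18 and 4.18 CPM in NoTumor-NoCD40 libraries 1, 2 and 3 and at 46.2, 21.6 and 54.5 CPM in NoTumor-CD40. Every agonist library was above every control library. The fitted log2 fold change was 2.33 ± 0.50 (SE) with an adjusted p of 0.0387 (edgeR quasi-likelihood test, Benjamini-Hochberg over 18095 genes). Within the 2 date-like prefixes of the sample titles that both groups share, the log2 CPM difference was 1.63 and 2.05. The call did not hold without NoTumor-NoCD40 library 2 or 3 or NoTumor-CD40 library 1 or 3 (adjusted p 0.202, 0.193, 0.118 and 0.19, edgeR). Over 15 alternatives the adjusted p ran from 0.000133 to 0.202, passing in 7, and the log2 fold change from 2.02 to 3.12.

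Ccl22 was measured at 1605, 859 and 512 CPM in NoTumor-NoCD40 and at 3869, 1749 and 4290 CPM in NoTumor-CD40. The groups did not overlap here either, but the difference did not pass the test, at a log2 fold change of 1.73 ± 0.51 and an adjusted p of 0.113 (edgeR). It passed with DESeq2 (adjusted p 0.0427), with no filter on low counts (edgeR, 0.0342) and without NoTumor-CD40 library 2 (edgeR, 0.0379). Within the shared title prefixes the log2 CPM difference of Ccl22 was 1.27 and 1.03. The mature dendritic cell markers summed to 3978 to 8683 CPM in NoTumor-NoCD40 and 9547 to 21741 CPM in NoTumor-CD40, again without overlap, and the cDC1 markers to 6814 to 9774 and 2460 to 7840 CPM; their part in the Ccl17 and Ccl22 differences was not tested.

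In all, 1 of the 9 members passed the threshold for the agonist without tumor, where 1.44% of all genes tested did, and 2 of 9 had groups that did not overlap, where 23.2% of all genes did. The median log2 fold change of the 9 was 0.49 against -0.04 over all genes, with 7 of 9 above 0. Among the other 7, Ccl5 (4258, 2353 and 1259 CPM in NoTumor-NoCD40; 4291, 2349 and 5335 CPM in NoTumor-CD40) had a log2 fold change of 0.61 ± 0.57 and an adjusted p of 0.603 (edgeR). Its first 2 libraries were level between the groups, with a log2 CPM difference of 0.01 and 0.0 within the shared title prefixes. Only the third differed widely. The third libraries of these groups have different title prefixes, so agonist and prefix cannot be told apart there. Cxcl16 (683, 471 and 419 CPM; 768, 585 and 850 CPM) had 0.49 ± 0.26 with an adjusted p of 0.339 (edgeR), its groups overlapping in 1 control library. For the remaining 5 the adjusted p ran from 0.34 for Cxcl11 to 0.904 for Ccl3 (edgeR).

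Of the CXCR3 ligands, Cxcl9 was at 342, 481 and 412 CPM in NoTumor-NoCD40 and 448, 487 and 111 CPM in NoTumor-CD40, where library 3 lay far below the rest (-0.24 ± 0.56). Cxcl10 was at 9.41, 13.4 and 8.65 CPM and at 22.8, 11.3 and 6.3 CPM (0.36 ± 0.51), its highest and lowest values both in the agonist group. Cxcl11 was at 0.115, 0.652 and 0.164 CPM and at 2.34, 0.471 and 0.317 CPM (1.70 ± 0.94), so that its fold change came mostly from NoTumor-CD40 library 1. Among the inflammatory CC chemokines of low level, Ccl4 was at 8.72, 4.76 and 3.94 CPM and at 4.24, 3.77 and 2.1 CPM (-0.79 ± 0.56), with the groups overlapping by a narrow margin. Ccl3 was at 2.33, 2.03 and 1.93 CPM and at 3.78, 2.36 and 1.15 CPM (0.20 ± 0.68), the control values lying inside the range of the agonist group.

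**Figure D2:**
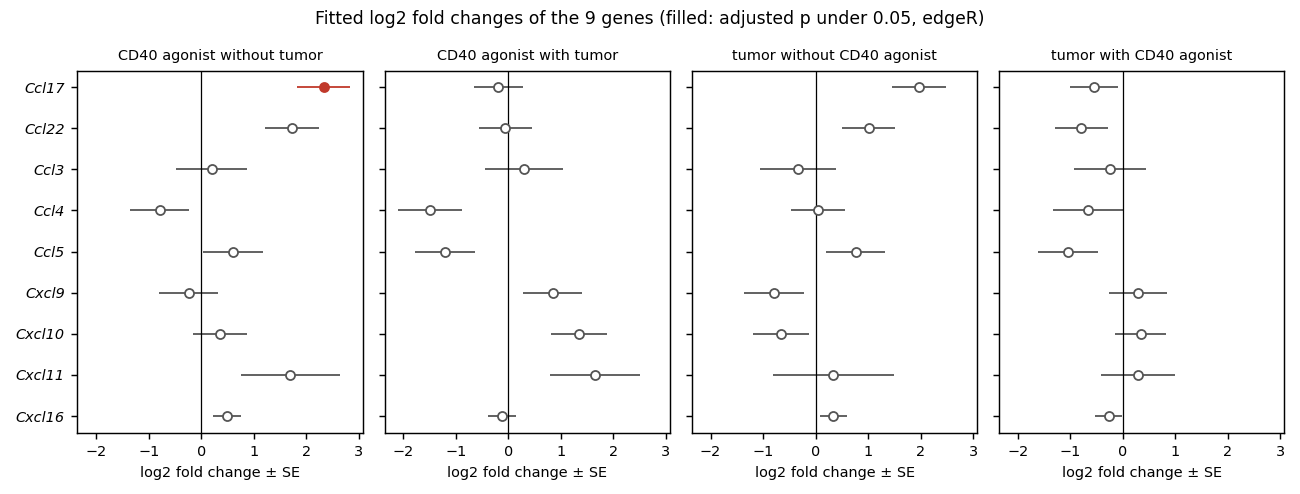
Fitted log2 fold change with its SE for the 9 genes in the 4 comparisons of 2 groups; the filled point has an adjusted p under 0.05 (edgeR). Ccl17 with the agonist without tumor (2.33) is the filled point, and its value with tumor is -0.19.

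In mice with tumor, the agonist comparison gave no member past the threshold, where 0.685% of all genes tested passed. Ccl17 stood at 45.1, 24.5 and 26 CPM in Tumor-NoCD40 and at 45.6, 19.8 and 18.4 CPM in Tumor-CD40, a log2 fold change of -0.19 ± 0.46. Ccl22 was at 2478, 787 and 2720 CPM and at 2923, 1430 and 1376 CPM, a log2 fold change of -0.06 ± 0.50. For both genes the 2 groups overlapped, with adjusted p of 0.943 for Ccl17 and 0.983 for Ccl22 (edgeR). At an unadjusted p under 0.05 there were 2 of the 9 members against 1803 of all genes, and DESeq2 called 0 of the 9.

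The CXCR3 ligands had the highest point estimates with the agonist in mice with tumor. Cxcl9 was at 203, 453 and 60.7 CPM in Tumor-NoCD40 and 414, 527 and 338 CPM in Tumor-CD40 (log2 fold change 0.84 ± 0.57, adjusted p 0.687, edgeR). Cxcl10 was at 3.64, 12.9 and 3.38 CPM and 10.3, 23 and 17.6 CPM (1.35 ± 0.53, unadjusted p 0.0221, adjusted p 0.383, edgeR). Cxcl11, with 3 to 57 counts per library, was at 0.578, 0.527 and 0.109 CPM and 1.6, 1.2 and 0.991 CPM (1.65 ± 0.85, adjusted p 0.546, edgeR). Only Cxcl11 had groups that did not overlap, 1 of 9 members where 11.9% of all genes did. In Cxcl9 and Cxcl10, Tumor-NoCD40 library 2 lay within the range of the agonist group. Within the 3 title prefixes the log2 CPM difference was 1.03, 0.22 and 2.48 for Cxcl9, 1.49, 0.84 and 2.35 for Cxcl10, and 1.35, 1.07 and 2.51 for Cxcl11. B cell markers moved in the same comparison, 7 of 8 passing the test upwards. Plasmacytoid dendritic cell markers summed to 187 to 237 CPM without and 486 to 623 CPM with the agonist, with no overlap. T cell markers summed to 115 to 595 CPM without and 136 to 330 CPM with the agonist. The part of these lists was not tested.

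Of the inflammatory CC chemokines, Ccl5 and Ccl4 had negative log2 fold changes in that comparison, which did not pass the test. Ccl5 was at 5446, 980 and 6901 CPM in Tumor-NoCD40 and 2507, 1398 and 1864 CPM in Tumor-CD40, a log2 fold change of -1.21 ± 0.57 (adjusted p 0.513, edgeR). Tumor-NoCD40 library 2 was the lowest of all 12 libraries and library 3 the highest, so the groups overlapped and the spread lay within the tumor group. Within the title prefixes the log2 CPM difference of Ccl5 was -1.12, 0.51 and -1.89. The T cell markers, which belong to a cell type that also makes Ccl5, summed to 325, 115 and 595 CPM in Tumor-NoCD40 libraries 1, 2 and 3, in the same order as Ccl5. They also had the order of Ccl5 in NoTumor-CD40 (185, 144 and 200 CPM). In Tumor-CD40 they did not (311, 136 and 330 CPM), and in NoTumor-NoCD40 they had the reverse order (122, 199 and 200 CPM). The mature dendritic cell markers had the order of Ccl5 in Tumor-NoCD40 too, at 12367, 4728 and 15178 CPM. They kept it in the groups without tumor but not in Tumor-CD40. The part of either list was not tested. Ccl4 was at 5.58, 3.61 and 8.72 CPM and at 3.76, 0.165 and 2.46 CPM (-1.50 ± 0.61, unadjusted p 0.0274, adjusted p 0.409, edgeR), the second agonist library holding only 4 counts. Ccl3 was at 2.02, 0.602 and 2.36 CPM and at 0.649, 0.867 and 4.44 CPM (0.29 ± 0.74), with no separation. Cxcl16 was at 777, 401 and 814 CPM and at 591, 680 and 557 CPM (-0.12 ± 0.26), the agonist libraries lying inside the wider range of Tumor-NoCD40.

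Without agonist, the tumor comparison called 0% of all genes tested by edgeR, with 1053 genes at an unadjusted p under 0.05, and therefore no member. DESeq2 called 29 genes, Ccl17 among them with a log2 fold change of 2.0 and an adjusted p of 0.0335. In edgeR, Ccl17 had a log2 fold change of 1.97 ± 0.51, an unadjusted p of 0.00164 and an adjusted p of 0.775. All 3 Tumor-NoCD40 libraries (24.5 to 45.1 CPM) were above all 3 NoTumor-NoCD40 libraries (4.18 to 14.9 CPM), 1 of 9 members without overlap where 8.98% of all genes had none. Within the 2 shared title prefixes the log2 CPM difference was 1.59 and 2.23. In the same comparison 10 of 10 mature dendritic cell markers, with the member Ccl22 counted among them here, were above 0 (median log2 fold change 0.70). So were 8 of 8 T cell markers (median 0.94). No marker of either list passed the threshold. The sums of both lists overlapped between the groups through Tumor-NoCD40 library 2, where Ccl17 was at 24.5 CPM. In that library the mature markers summed to 4728 CPM (3978 to 8683 CPM in NoTumor-NoCD40). Its T cell markers summed to 115 CPM (122 to 200 CPM in NoTumor-NoCD40). The part of either list was not tested. Ccl22 (1.01 ± 0.50, adjusted p 0.775, edgeR) overlapped, since Tumor-NoCD40 library 2 at 787 CPM lay within the control range. The other 7 members had log2 fold changes between -0.79 for Cxcl9 and 0.76 for Ccl5.

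With agonist, the tumor comparison also called none of the 9, where 0.199% of all genes tested passed, and none of them had groups without overlap, where 12.9% of all genes did. The largest difference was that of Ccl5, at -1.05 ± 0.57 (adjusted p 0.592, edgeR), followed by Ccl22 at -0.79 ± 0.50 (adjusted p 0.644, edgeR). The median of the 9 was -0.27 against -0.01 over all genes, with 3 of 9 above 0. At an unadjusted p under 0.05 there were 0 of the 9 members against 1684 of all genes, and DESeq2 called 0 of the 9.

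Whether the agonist's effect differed between mice with and without tumor was tested by the interaction, which called 0% of all genes by edgeR (1770 at an unadjusted p under 0.05; 18 called by DESeq2). Ccl17 had the largest interaction of the 9, at -2.52 ± 0.68 on the log2 scale (unadjusted p 0.00241, adjusted p 0.495, edgeR; adjusted p 0.097 with DESeq2). Ccl5 had -1.81 ± 0.81 (unadjusted p 0.0413) and Ccl22 -1.80 ± 0.71 (unadjusted p 0.0241), with adjusted p of 0.501 and 0.495 (edgeR). The signs of Cxcl9 (1.08 ± 0.80) and Cxcl10 (1.0 ± 0.73) were opposite, and neither passed. A different response to the agonist by tumor status is thus not shown for any member.

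**Figure D3:**
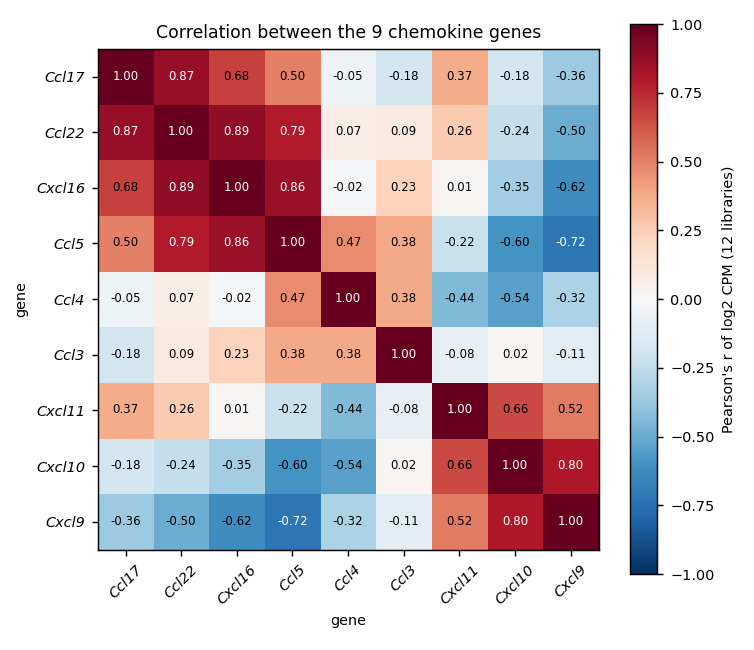
Pearson's r of log2 CPM between the 9 genes over the 12 libraries, from -1 (blue) to 1 (red). Ccl17, Ccl22, Cxcl16 and Ccl5 form a block of positive values. In it, Ccl17 with Cxcl16 (0.68) and Ccl17 with Ccl5 (0.5) did not pass (permutation test, adjusted p 0.0751 and 0.257). Ccl5 with Cxcl9 (-0.72) is the lowest pair.

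Several members varied together across the libraries. Over the 12 libraries, 36 relations were computed on log2 CPM, with permutation p adjusted over the 36. Ccl22 and Cxcl16 had r = 0.89 and rho = 0.85 (permutation p 0.00013 and 0.00082, adjusted 0.0045 and 0.00984), and r = 0.82 without the 2 libraries farthest from the median. For the CCR4 ligands Ccl17 and Ccl22, r was 0.87 and rho 0.87 (permutation p 0.00025 and 0.00053, adjusted 0.0045 and 0.00954; r = 0.76 without 2 libraries). Ccl5 and Cxcl16 had r = 0.86 and rho = 0.89 (permutation p 0.00059 and 0.00025, adjusted 0.00708 and 0.009; r = 0.77). Ccl22 and Ccl5, which have no receptor in common among those named above, gave r = 0.79 and rho = 0.80 (permutation p 0.00287 and 0.00278, adjusted 0.0207 and 0.025; r = 0.71).

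The interferon-inducible neighbours Cxcl9 and Cxcl10 gave r = 0.80 and rho = 0.76 (permutation p 0.00288 and 0.00604, adjusted 0.0207 and 0.0435; r = 0.77 without 2 libraries). Ccl5 ran against Cxcl9, with r = -0.72 and rho = -0.65 (permutation p 0.00357 and 0.0256, adjusted 0.0214 and 0.115; r = -0.66), and the rank correlation did not pass after adjustment. Deviations from the group means gave r of 0.87, 0.83, 0.91, 0.95, 0.77 and -0.72 for these 6 pairs in the order named, so the relations were also present within groups. These deviations still hold any difference between the title prefixes, which the groups share. The permutations shuffled all 12 libraries without regard to group or prefix. The relations, and those with markers below, thus cannot be told apart from a shared difference between prefixes. No title prefix holds 6 libraries, so no value within a prefix is given.

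**Figure D4:**
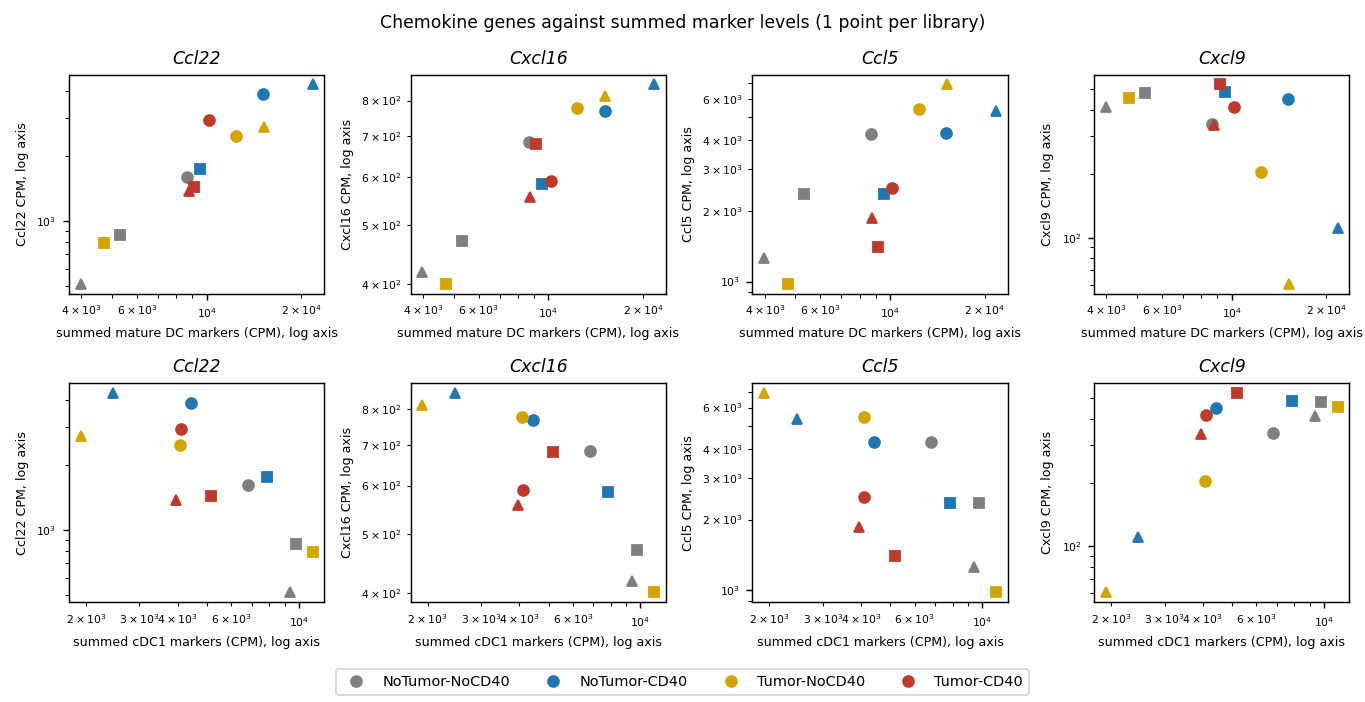
CPM of 4 genes against the summed CPM of 9 mature dendritic cell markers (top) and 10 cDC1 markers (bottom), all axes log, 1 point per library, coloured by group. Ccl22 and Cxcl16 climb with the mature markers (r = 0.96 and 0.95), and Cxcl9 is lowest in the 2 libraries with the lowest cDC1 sums.

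Against the summed mature dendritic cell markers, Ccl22 had r = 0.96 and rho = 0.94 and Cxcl16 r = 0.95 and rho = 0.90 (18 relations; for r the permutation p of 1e-05 is the smallest that the permutations can give, adjusted 9e-05; for rho the p was 2e-05 and 0.00022, adjusted 0.00036 and 0.00198). Without the 2 farthest libraries r was 0.94 and 0.90. Ccl5 had r = 0.81 and rho = 0.82 (permutation p 0.0015 and 0.00187, adjusted 0.00477 and 0.00841; r = 0.74) and Ccl17 r = 0.80 and rho = 0.85 (permutation p 0.00159 and 0.00097, adjusted 0.00477 and 0.00582; r = 0.62). Against the cDC1 markers, Cxcl16 had r = -0.83 and rho = -0.79 (permutation p 0.00102 and 0.00332, adjusted 0.00459 and 0.012; r = -0.74 without 2 libraries). Ccl22 had r = -0.80 and rho = -0.71 (permutation p 0.0021 and 0.0126, adjusted 0.0054 and 0.0284; r = -0.73), and Ccl5 r = -0.73 and rho = -0.71 (permutation p 0.00803 and 0.0117, adjusted 0.0181 and 0.0284; r = -0.52). Cxcl9 varied in the same direction as the cDC1 markers, with r = 0.80 and rho = 0.74 (permutation p 0.00072 and 0.00794, adjusted 0.00432 and 0.0238). The relation of Cxcl9 fell to r = 0.45 without NoTumor-CD40 library 3 and Tumor-NoCD40 library 3, so it rests on those libraries. Ccl3 and Ccl4 followed neither list, with r between -0.16 and 0.17.

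The genes most like each member over the 12 libraries were sought among the 10222 tested genes whose mean CPM reached 5. For Ccl22 they were Serpinb6b (r = 0.983) and Ogfrl1 (0.979), for Cxcl16 Pgap2 and Gadd45b (0.981 each), and for Ccl5 Clu (0.986) and Insm1 (0.982). Cxcl9 was closest to Fgr (0.975) and Napsa (0.971), Cxcl10 to Csprs (0.915) and Ifi204 (0.91), and Ccl17 to Cyfip1 (0.939) and Atp6v0c (0.924). The weakest best matches were those of Ccl3, with Zxdb (0.795) and Tmem120a (0.774), and Ccl4 was closest to Gm20481 (0.918) and Gm15542 (0.896). These are the highest values of a search and are given as a description.

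**Figure D5:**
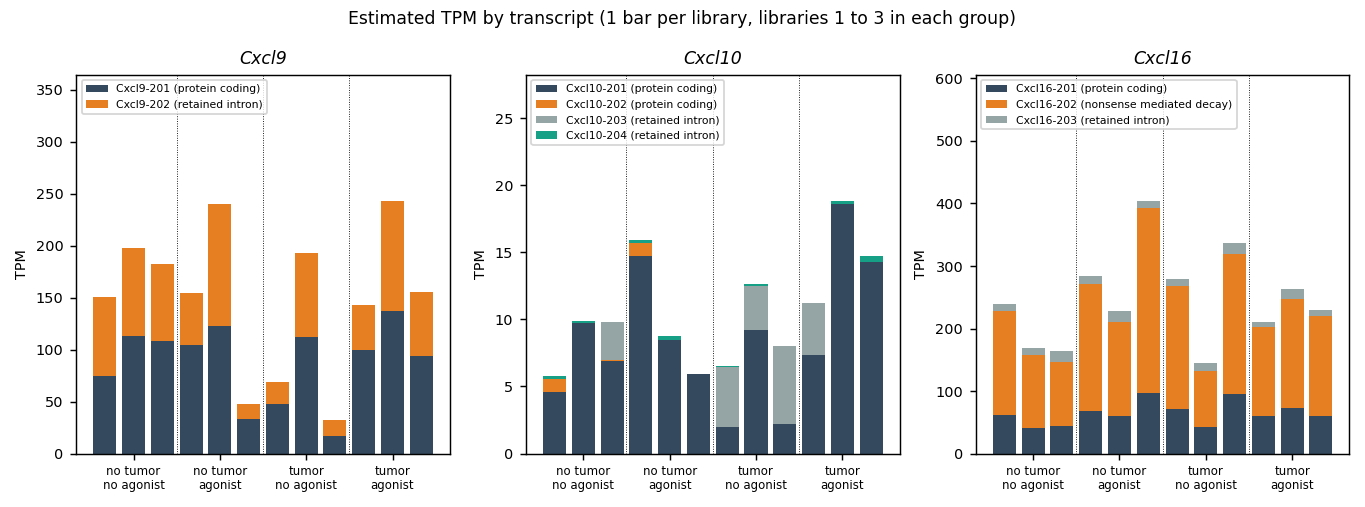
TPM of each annotated transcript of Cxcl9, Cxcl10 and Cxcl16, stacked, 1 bar per library in the order of groups and libraries 1 to 3. The retained-intron transcript of Cxcl10 takes 68.8, 25.7 and 72.6% of the gene's TPM in Tumor-NoCD40 and 0 in NoTumor-CD40.

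Cxcl9, Cxcl10 and Cxcl16 had large estimated shares of transcripts that are not annotated as coding. Of the TPM of Cxcl16, 61.8 to 73.3% was assigned to Cxcl16-202, annotated as a target of nonsense-mediated decay, and 23.8 to 29.1% to the coding Cxcl16-201, with similar shares in all groups. In Cxcl9, 30 to 50.6% was assigned to a retained-intron transcript of 370 bases. The retained-intron Cxcl10-203 (344 bases) had 68.8, 25.7 and 72.6% of the gene's TPM in Tumor-NoCD40, 0, 0 and 28.8% in NoTumor-NoCD40, 34.3, 0 and 0% in Tumor-CD40 and none in NoTumor-CD40. The coding Cxcl10-201 was at 1.99, 9.21 and 2.17 TPM in Tumor-NoCD40 and 7.35, 18.6 and 14.3 TPM in Tumor-CD40, with overlap through Tumor-NoCD40 library 2. The log2 difference of Cxcl10 for tumor without agonist was -0.66 on counts (edgeR) and 0.07 on log2(TPM + 1) (limma-trend). In NoTumor-NoCD40 the coding Cxcl10-201 was at 4.62, 9.73 and 6.9 TPM. Cxcl10-203 was at 0, 0 and 2.82 TPM there and at 4.48, 3.25 and 5.81 TPM in Tumor-NoCD40. The cause of the change in sign was not tested.

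The ratio of the CCR4 ligands was examined after the values were seen. Ccl22 over Ccl17 in TPM was 12.7, 19.8 and 14.4 in NoTumor-NoCD40 and 9.95, 10.7 and 9.6 in NoTumor-CD40, without overlap (exact permutation test, two-sided, p = 0.1, the smallest that 3 against 3 allows; adjusted 0.6 over 12 ratio tests). In Tumor-NoCD40 it was 6.64, 3.9 and 13.3 and in Tumor-CD40 7.8, 8.66 and 10.6. No ratio test passed.

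Receptors of the members ranged from barely detected to moderate levels. Cxcr3, the receptor of Cxcl9, Cxcl10 and Cxcl11, was at 48.7, 68.8 and 53 CPM in NoTumor-NoCD40 and at 15.1, 45.3 and 8.05 CPM in NoTumor-CD40 (-1.31 ± 0.55, adjusted p 0.227, edgeR). This difference did not pass, though the groups did not overlap. Cxcr6, the receptor of Cxcl16, had group means of 13.4 to 17.2 CPM, Ccr4 of 0.86 to 3.65 CPM and Ccr1 of 0.368 to 4.86 CPM, while Ccr3 did not exceed a group mean of 0.192 CPM.

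Among 21 chemokine receptors tested, 1 rose with the agonist without tumor: Ccr7, which leads dendritic cells into lymph nodes and is also on the list of mature markers (1.88 ± 0.40, adjusted p 0.0326, edgeR). With tumor, the agonist raised Ccr6 (2.31 ± 0.39, adjusted p 0.0143) and Cxcr5 (2.99 ± 0.51, adjusted p 0.0172), both also known from B cells, in edgeR, beside the B cell sums given above. Ccr6 also rose with tumor among agonist libraries (2.33 ± 0.39, adjusted p 0.042, edgeR). None of 18 gene entries of other chemokine ligands tested, Ccl21a having separate entries, and none of 5 proteases that cut or shed the members passed in any comparison.

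Regulators of the members passed the test only with the agonist without tumor. Of 19 genes of CD40 and NF-kB signaling, 3 rose there: Bcl3 (1.20 ± 0.19, adjusted p 0.0101), Traf1 (1.45 ± 0.29, adjusted p 0.0278) and Nfkbie (0.95 ± 0.21, adjusted p 0.0401), by edgeR. The list's median log2 fold change was 0.78 against -0.04 over all genes, with 17 of 19 above 0; with tumor it was 0.02 and none passed. Of 13 genes of interferon signaling, Irf1, a transcription factor that acts on interferon-response genes, passed narrowly (1.59 ± 0.37, adjusted p 0.0499, edgeR). Of 8 regulators linked to Ccl17 and Ccl22, Il4ra, the receptor chain for IL-4, rose (1.51 ± 0.31, adjusted p 0.0313, edgeR). No gene of these 3 lists passed in the other comparisons, and the difference between the agonist's effects was not past the threshold for any of them.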

How the data were processed

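Bulk RNA-seq libraries were made with the Qiagen RNeasy Plus Micro and NEBNext Ultra II Directional kits, per the labels' protocols. The authors deposited expected counts and TPM per transcript, which were estimated by the authors with Salmon for mm10 per the submitters' processing notes, although the file naming speaks of sailfish; the version and annotation release are not given in the sources used here. Of 136288 transcripts, 136176 were assigned to 53458 genes with GENCODE M21, and the other 112 (0.0279 to 0.0457% of counts) were left out. Expected counts were summed to genes and rounded; the deposited TPM values were summed. A model over 12 libraries (8 residual degrees of freedom) was fitted with edgeR 4.0.16 in R 4.3.3 (TMM factors 0.936 to 1.074, filterByExpr with a minimum count of 10 and total of 15, glmQLFit and glmQLFTest), with Benjamini-Hochberg adjustment over 18095 genes and a threshold of 0.05. The procedure was tested on a single simulated data set per comparison of 2 groups. False calls were 8.7% for the agonist without tumor and 6.17% for the tumor without agonist, above the threshold of 0.05. They were 1.16% for the agonist with tumor and 3.45% for the tumor with agonist. With the legacy setting of glmQLFit the first 2 values were 5.75 and 0%. Single data sets do not settle the rate of false calls. Most of the smaller changes were missed in every comparison of 2 groups. Log2 CPM used a prior count of 2.

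The alternatives were RLE scaling, no filter, DESeq2 1.42.0, limma 3.58.1 (voom, and trend on log2(TPM + 1) or log2(TPM + 0.1)), the legacy setting of glmQLFit, the title prefix as a term, the compared groups only, and leaving out each library. The members, lists and tests were chosen with earlier results of these data known. Named beside the 9 members are the 2 genes most correlated with each member of at least 1 TPM, list genes past the threshold and receptors of the members, of which 1 is not reported here. The date-like title prefix is not explained by the labels. The length of the printed promoter windows was set after the motif matches were seen. The prefix is shared across groups, except that NoTumor-NoCD40 library 3 has a prefix of its own.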

Additional observations from a re-analysis of the deposited data

How the results depend on the processing

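The number of the 9 genes past the threshold for the agonist without tumor, 1 by edgeR, became 2 with no filter on low counts and with DESeq2, and 0 with limma-voom, with limma-trend at either pseudocount and with the legacy setting; leaving out 1 library gave 0 to 2. There Ccl17 missed the threshold with limma-voom (adjusted p 0.0774), limma-trend (0.0823 and 0.0749) and the legacy setting (edgeR, 0.0504). For tumor without agonist the count of 0 became 1 with DESeq2. The other 3 counts of members stayed at 0 in every alternative run. The cause of these changes was not tested.

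With the title prefix as a replicate block, Ccl17 kept its call (log2 fold change 2.11, adjusted p 0.047, edgeR), and no call of a member changed. The block moved the number of all genes called from 261 to 48, 124 to 229 and 36 to 83 (agonist without tumor, agonist with tumor, tumor with agonist). Deviations from the group means correlated at 0.004 to 0.228 over 15 pairs with the same prefix and at -0.19 to 0.088 over 39 others, and 10 of 11 libraries correlated best with their own prefix, so the prefix is a hint from the data and not a stated pairing.

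Of 720 fold changes under alternatives, 658 kept their direction and side of the threshold, 8 lost the threshold, 4 gained it, and 50 changed sign, none of them called. In limma-voom these were Ccl22 (0.04) and Ccl3 (-0.03) for agonist with tumor, and Ccl3 (-0.07) and Cxcl11 (0.38) for the interaction. With limma-trend at pseudocounts 1 and 0.1 they were Ccl22 (0.11 in both) and, at 0.1 only, Ccl3 (-0.06) for agonist with tumor, Cxcl10 (0.07 and 0.08) for tumor without agonist, and Ccl3 (-0.15 and -0.24) and Cxcl11 (0.12 and 0.29) for the interaction. Under the block they were Ccl3 (-0.08) and Cxcl9 (0.06) for agonist without tumor, Ccl22 (0.07) for agonist with tumor, and Ccl4 (-0.27) and Ccl5 (-0.06) for tumor without agonist. Leaving out 1 library gave, for agonist without tumor, Ccl3 -0.24 to 0.54, Cxcl10 -0.24 to 0.70 and Cxcl9 -0.57 to 0.18. For agonist with tumor it gave Ccl17 -0.74 to 0.13, Ccl22 -0.51 to 0.23, Ccl3 -1.11 to 0.69 and Cxcl16 -0.39 to 0.06. For tumor without agonist the ranges were Cxcl11 -0.07 to 1.51, Ccl4 -0.34 to 0.46 and Ccl3 -0.70 to 0.07, and for tumor with agonist Ccl3 -1.65 to 0.21, Cxcl11 -0.12 to 1.66 and Cxcl9 -0.11 to 0.63. The interaction ran from -1.21 to 1.30 for Cxcl11 and from -1.32 to 0.53 for Ccl3.

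The number of all genes called moved by more than 1.5 times in many alternatives. For agonist without tumor (261) it was 401 with no filter, 913 with DESeq2, 120 with limma-voom, 31 and 29 with limma-trend, 173 with the compared groups only and 22 to 946 without 1 library. For agonist with tumor (124) these were 200, 316, 36, 29 and 21, 25 and 26 to 226, and 61 with the legacy setting. For tumor with agonist (36) they were 89, 166, 0, 12 and 6, 3 and 0 to 71, and 0 with the legacy setting. For tumor without agonist (0) they were 1 with no filter, 29 with DESeq2 and 0 to 2 without 1 library, and for the interaction (0) 18 with DESeq2 and 2 with limma-trend at pseudocount 1. With 3 libraries a group and 3 to 57 counts, Cxcl11 is the member whose values the depth limits most.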
